A study of Rattus norvegicus with 10 samples.

Results

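The 9 genes described here store, release and take up fatty acids as triglyceride: Plin2 and Plin5 coat the lipid droplet, Dgat1 and Dgat2 make triglyceride, Pnpla2 and Mgll break it down inside the cell, and Lpl, Lipg and Cd36 act at the vessel wall and the cell surface. They were chosen by name for these roles, with earlier results of these data known. Each was read from the array probe set that carries its symbol. Where a gene had several probe sets, the probe set with the highest mean over all 10 arrays was used. All 9 genes were measured, of 14506 named genes on the array. Only Cd36 had 2 probe sets, and the other members had 1 each. Levels are log2 intensities, on which a difference of 1 is a doubling, and levels of different genes are not comparable because each probe set has its own brightness.

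A lipid droplet is a core of triglyceride and sterol ester under a single layer of phospholipid, most of it phosphatidylcholine, which is made from choline. Perilipins sit on that surface and govern the access of lipases, and free Plin2 is degraded, so that its protein amount tracks the stored fat. The kidney tubule draws most of its energy from fatty acids taken from blood, and injured tubules are known for droplets in their cells. Many genes of this system are targets of the nuclear receptor PPAR alpha, which binds long-chain fatty acids, those of fish oil included.

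The kidneys were those of weanling Wistar males after 6 days on a diet, and each array held 1 pool of 3 animals. The groups, with 2 pools each, were necrotic kidneys of rats on a choline-deficient diet with vegetable oil (called necrotic below), kidneys of rats on the same choline-deficient vegetable oil diet without that word in the label (deficient vegetable oil), kidneys on a choline-deficient diet with menhaden fish oil (deficient fish oil), kidneys on a choline-supplemented diet with menhaden oil (control fish oil), and kidneys on a choline-supplemented diet with vegetable oil (control vegetable oil). The protocol names corn and hydrogenated oils as the vegetable fat where the sample labels name corn oil only, and how the necrotic animals were told apart is not given. With 5 groups of 2 pools, precision is limited by the number of arrays, and the p-values measure the spread between pools of animals.

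Markers of the tubule and of its injury were read as a check of the labels. Slc34a1, the phosphate transporter of the proximal tubule, had log2 intensities of 10.58 and 10.43 in necrotic kidneys and lay between 13.69 and 14.03 in the other 8. Havcr1, a marker of tubular injury, lay at 13.24 and 13.53 in necrotic kidneys, at 11.82 and 13.11 in deficient vegetable oil kidneys and at 6.67 and 6.56 in control vegetable oil kidneys. The deficient fish oil pools were unequal, at 9.30 and 7.22, and the control fish oil pools lay at 6.49 and 6.37. The deficient vegetable oil pools were unlike each other, with replicate 2 nearer to the necrotic kidneys. In necrotic kidneys 7 of 8 proximal tubule markers fell (summed linear intensity 19791 and 17403 in necrotic kidneys, against 74863 and 77313 in control vegetable oil kidneys) and 7 of 8 macrophage markers rose (11713 and 12145 in necrotic kidneys, against 2107 and 2306 in control vegetable oil kidneys).

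The first comparison set necrotic kidneys against control vegetable oil kidneys, the widest contrast of the choline-lack injury that the series was made to study. The droplet coat gene Plin2 was higher in the necrotic kidneys, and the lipase genes Lipg and Mgll were lower. The other 6 members did not pass the test, among them both triglyceride synthases and the main droplet lipase. By limma with Benjamini-Hochberg adjustment over all 29214 probe sets, 1 of the 9 members rose and 2 fell at an adjusted p under 0.05, where 20.9% of all probe sets passed in either direction (10.2% higher and 10.7% lower). Among the 14506 named genes, each read from its brightest probe set, the share was 28.1%, close to that of the members.

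Plin2 (probe set 10877907) encodes the perilipin that most cells outside fat tissue place on their droplets. Its log2 intensities were 12.20 and 11.70 in necrotic kidneys, against 10.25 and 10.36 in control vegetable oil kidneys. Both stood above the pools of every other group except replicate 2 of the deficient vegetable oil kidneys, which was level with the lower of them. The difference was 1.64 ± 0.28 (SE, n = 2 pools each, 95% interval 1.00 to 2.28, adjusted p = 0.00412), a 3.12-fold higher intensity. Plin5 (probe set 10931038), the perilipin of tissues that burn fat, which links droplets to mitochondria, read 6.90 and 6.78 in necrotic kidneys and 6.97 and 6.99 in control vegetable oil kidneys. Those pools did not overlap, but the difference of -0.13 ± 0.15 did not pass the test (95% interval -0.49 to 0.22, adjusted p = 0.590).

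Lipg (probe set 10805229) encodes endothelial lipase, a secreted phospholipase of the lipoprotein lipase family that acts mainly on high-density lipoprotein. It had log2 intensities of 5.90 and 5.43 in necrotic kidneys, against 8.65 and 8.77 in control vegetable oil kidneys. The necrotic pools were the lowest of all 10 arrays and far from the rest. The difference was -3.05 ± 0.20 (SE, n = 2 each, 95% interval -3.51 to -2.58, adjusted p = 6.02e-05), an 8.26-fold lower intensity. The necrotic values lay near the lower quartile of all probe sets, which ran from 5.66 to 5.84 over the arrays, and the files hold no detection calls. Of the endothelial markers 4 of 7 also fell in necrotic kidneys, with summed linear intensities of 9785 and 10967 against 12368 and 13784 in control vegetable oil kidneys; their part in the Lipg difference was not tested.

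Mgll (probe set 10857130) encodes monoacylglycerol lipase, which takes the last fatty acid off the glycerol. Its log2 intensities were 10.83 and 11.06 in necrotic kidneys, against 12.21 and 12.33 in control vegetable oil kidneys. No pool of any other group was as low as the necrotic pools. The difference was -1.32 ± 0.17 (SE, n = 2 each, 95% interval -1.72 to -0.93, adjusted p = 0.00118), a 2.51-fold lower intensity. Pnpla2 (probe set 10712317), known as adipose triglyceride lipase, makes the first cut of triglyceride in the droplet and is the step before Mgll and the diacylglycerol lipases. It had 12.68 and 12.30 in necrotic kidneys and 12.07 and 12.34 in control vegetable oil kidneys. These pools overlapped, and the difference of 0.28 ± 0.16 did not pass (95% interval -0.08 to 0.65, adjusted p = 0.256).

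The genes of synthesis and uptake had small or uneven differences in the same comparison. Dgat1 (probe set 10904948), the acyltransferase that joins the third fatty acid to diacylglycerol in the endoplasmic reticulum, had 10.18 and 9.99 in necrotic kidneys and 10.01 and 10.06 in control vegetable oil kidneys (difference 0.05 ± 0.13, 95% interval -0.25 to 0.34). Dgat2 (probe set 10723866), an unrelated enzyme with the same reaction, had 10.41 and 9.60 in necrotic kidneys and 10.15 and 10.27 in control vegetable oil kidneys (-0.21 ± 0.28, 95% interval -0.85 to 0.43). For both genes the necrotic pools lay on either side of the control pools. Lpl (probe set 10791250), which frees fatty acids from circulating triglyceride at the capillary wall, had 10.02 and 10.10 in necrotic kidneys and 9.89 and 10.23 in control vegetable oil kidneys, with both means at 10.06 and a 95% interval of the difference of -0.49 to 0.49. Cd36 (probe set 10940473), the fatty acid translocase of the cell surface, had 10.97 and 10.68 in necrotic kidneys and 10.42 and 10.89 in control vegetable oil kidneys (0.17 ± 0.17, 95% interval -0.23 to 0.56), and its dimmer probe set differed by 0.22 ± 0.22. Adjusted p was 0.834 for Dgat1, 0.655 for Dgat2, 1.00 for Lpl and 0.551 for Cd36, which leaves room for changes as large as those intervals.

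**Figure D1:**
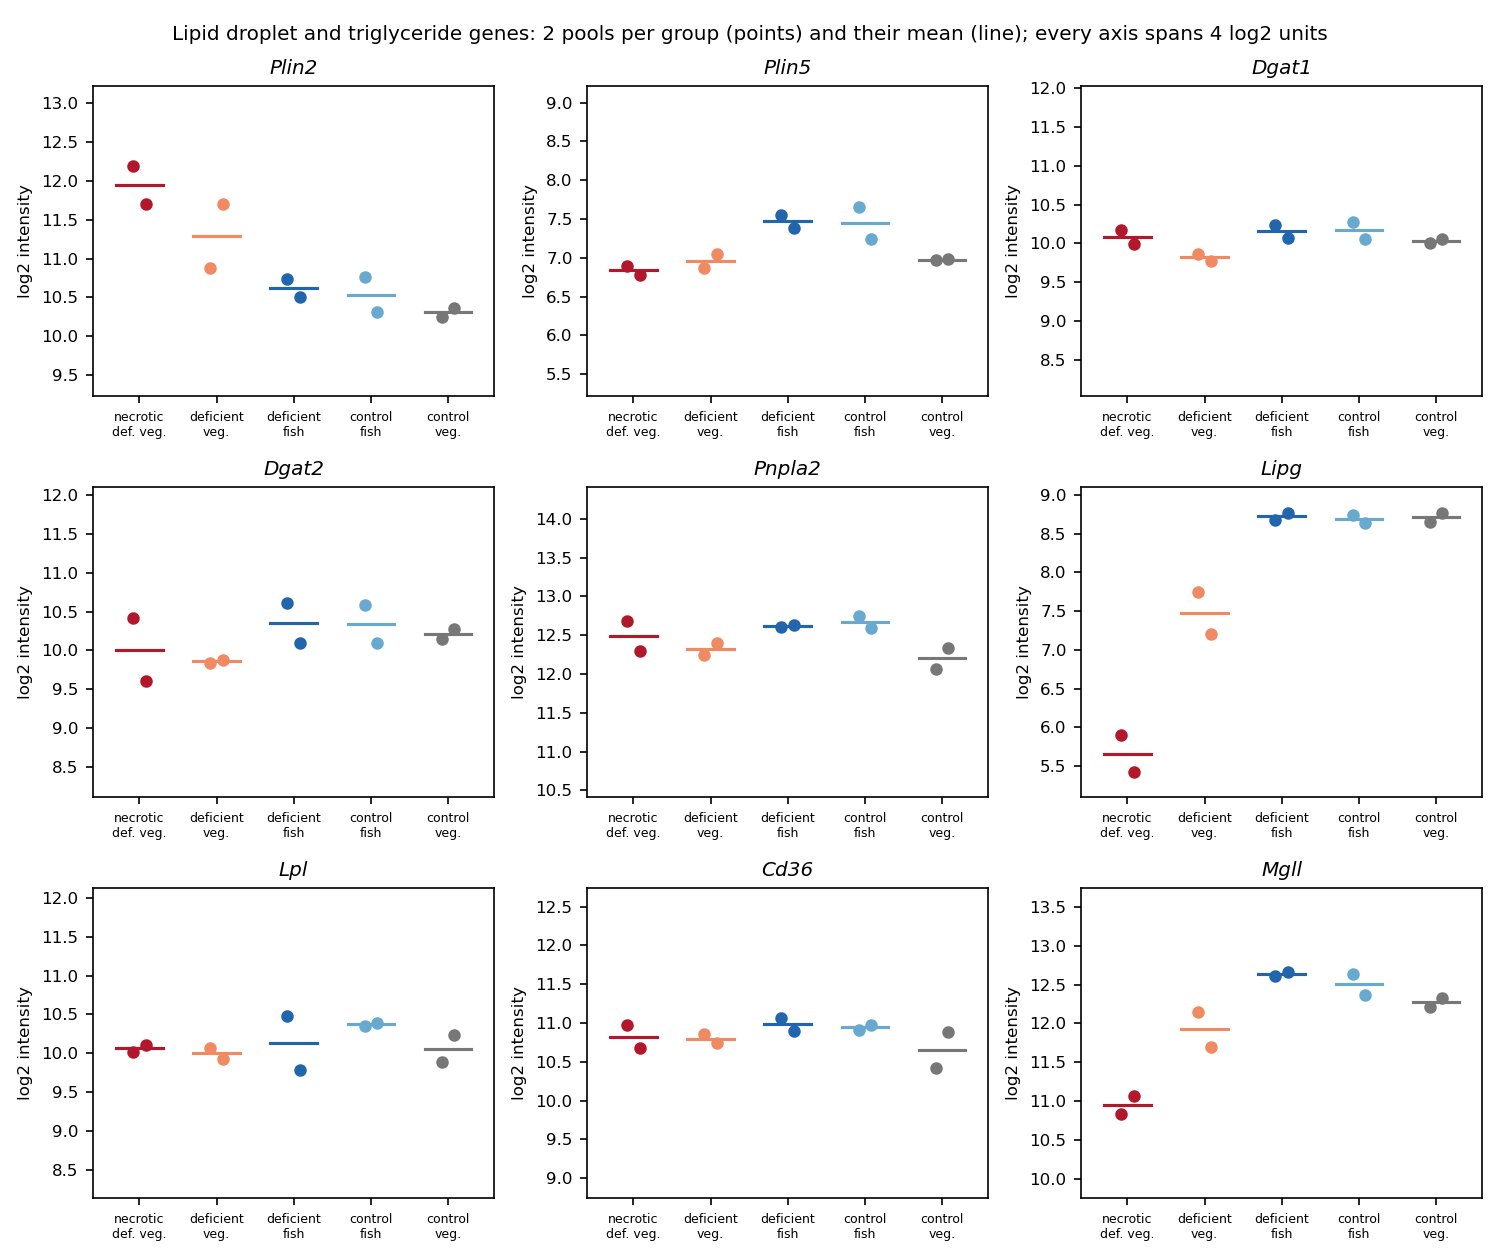
Log2 intensity of each of the 9 genes by diet group, with 1 point per pool of 3 animals (2 per group) and a line at the mean. Every vertical axis spans 4 log2 units. Plin2 has its highest group mean in necrotic kidneys (pools at 12.20 and 11.70), Lipg and Mgll are lowest there, and the remaining genes vary by about 1 unit or less over all 10 arrays.

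These differences were measured in whole kidney, in which fewer cells of a type and less RNA per cell cannot be told apart. The part that the lower tubule marker levels and higher macrophage marker levels of necrotic kidneys have in the differences of Plin2, Lipg and Mgll was not tested. Fat tissue around the kidney also expresses many of these genes. Of 10 adipocyte markers 2 fell in necrotic kidneys and none rose, where 28.1% of all named genes passed. Their summed linear intensities were 3804 and 2701 in necrotic kidneys, against 4827 and 6514 in control vegetable oil kidneys. The sums include Ucp1, whose part in them was not computed. The 2 that fell were Ucp1 and Cidec, with the Cidec call lost without replicate 2 of the necrotic pools or either control pool (adjusted p = 0.0555 to 0.119), and 4 of the 10 markers (Plin1, Cidec, Fabp4 and Lipe) also stand in the lists of lipid genes used further on. Adiponectin (Adipoq), a defining adipocyte gene, had 9.24 and 8.97 in necrotic kidneys and 9.37 and 9.72 in control vegetable oil kidneys (-0.44 ± 0.30, adjusted p = 0.356). The part of fat tissue in the members' levels was not tested.

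Promoter windows are shown for the 3 genes that changed in this comparison. RefSeq (assembly GRCr8) gave windows of 250 bases before and 50 after the start for 6 of the 9 genes, and the 250 bases before the start are printed 5′ to 3′ on the gene's strand. Capitals mark the E-box CACGTG, which reads the same on both strands and is bound by several families of transcription factors. It was searched for after these sequences had been read, so its presence is a description only.
Plin2: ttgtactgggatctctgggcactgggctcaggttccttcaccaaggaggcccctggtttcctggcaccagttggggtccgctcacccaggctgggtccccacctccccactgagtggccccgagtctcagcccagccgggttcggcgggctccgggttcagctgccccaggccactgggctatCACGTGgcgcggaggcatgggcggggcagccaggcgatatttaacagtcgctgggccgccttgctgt
Lipg: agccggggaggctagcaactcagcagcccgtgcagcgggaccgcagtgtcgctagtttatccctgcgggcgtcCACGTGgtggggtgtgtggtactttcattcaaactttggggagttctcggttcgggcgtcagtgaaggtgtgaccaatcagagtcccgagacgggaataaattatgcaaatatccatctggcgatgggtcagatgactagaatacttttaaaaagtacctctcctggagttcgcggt
Mgll: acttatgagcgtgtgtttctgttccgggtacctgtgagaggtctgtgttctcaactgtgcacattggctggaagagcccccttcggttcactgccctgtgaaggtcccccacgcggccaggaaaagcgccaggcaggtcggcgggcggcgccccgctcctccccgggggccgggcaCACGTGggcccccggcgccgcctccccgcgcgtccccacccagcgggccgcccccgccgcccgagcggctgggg

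The Plin2 window lies at chr5:106229019-106229268 on the minus strand, that of Lipg at chr18:70811260-70811509 on the minus strand, and that of Mgll at chr4:122749186-122749435 on the plus strand. The E-box lay 62 bases before the start in Plin2, 172 in Lipg and 69 in Mgll. It was in 6.42% of 33469 promoter windows of 300 bases in the same table, and not in the windows of Pnpla2, Cd36 and Plin5 or in a second Plin2 window. The PPAR response element AGGTCANAGGTCA, searched on both strands, was in none of the 7 windows of these genes and in 0.0538% of all windows. TATAAA, in 14.2% of all windows, was found in the Cd36 window alone, 170 bases before the start.

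Lack of choline without the necrotic label was examined in the deficient vegetable oil kidneys against control vegetable oil kidneys. Only Lipg passed the test, and it was lower. This was 1 of 9 members, 0 higher and 1 lower, where 1.13% of all probe sets passed (0.893% higher and 0.236% lower) and 1.76% of named genes did. Lipg had 7.75 and 7.21 in deficient vegetable oil kidneys, against 8.65 and 8.77 in control vegetable oil kidneys. Both deficient pools lay below all control and fish oil pools and above both necrotic pools. The difference was -1.23 ± 0.20 (SE, n = 2 each, 95% interval -1.70 to -0.77, adjusted p = 0.0303), a 2.35-fold lower intensity. The call was lost without replicate 2 of the deficient pools (-0.96, adjusted p = 0.151), without replicate 1 or 2 of the control pools (adjusted p = 0.168 and 0.230), and when only these groups were fitted (0.122).

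Plin2 stood apart between the same groups without passing. It had 10.88 and 11.71 in deficient vegetable oil kidneys and 10.25 and 10.36 in control vegetable oil kidneys. Both deficient pools were above both controls, but replicate 2 was as high as the lower necrotic pool and replicate 1 was close to the fish oil pools. The difference of 0.99 ± 0.28 had an adjusted p of 0.165 (95% interval 0.35 to 1.63), and without replicate 1 of the deficient pools it was 1.40 with an adjusted p of 0.0421. Mgll had 12.15 and 11.69 in deficient vegetable oil kidneys, against 12.21 and 12.33 in control vegetable oil kidneys. Its deficient pools were both lower, replicate 2 again the more distant (-0.35 ± 0.17, adjusted p = 0.381). The summed macrophage markers ran the same way, at 3800 in replicate 1 and 5299 in replicate 2 of the deficient pools, against 2107 and 2306 in control vegetable oil kidneys, and their part was not tested.

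The remaining members of the deficient vegetable oil comparison lay between -0.35 (Dgat2) and 0.14 (Cd36), with adjusted p-values of 0.472 or more. Dgat1 had 9.87 and 9.78 in deficient vegetable oil kidneys, below both controls and the lowest of all groups. Dgat2 had 9.84 and 9.88, also below both controls. Neither passed (Dgat1 -0.21 ± 0.13, Dgat2 -0.35 ± 0.28). Plin5 had 6.87 and 7.05, Pnpla2 12.24 and 12.40, Lpl 10.07 and 9.93, and Cd36 10.86 and 10.74 in deficient vegetable oil kidneys, and all 4 overlapped the controls. Between these groups too, the share of all probe sets with overlapping pools was not counted.

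Necrotic kidneys were then set against deficient vegetable oil kidneys, which had the same diet. Lipg and Mgll were lower still in necrotic kidneys, and no member was called higher. These were 2 of 9 members, where 9.79% of all probe sets passed (4.71% higher and 5.08% lower) and 14.2% of named genes did. Lipg differed by -1.81 ± 0.20 (95% interval -2.28 to -1.35, adjusted p = 0.00139), a 3.51-fold lower intensity, and Mgll by -0.98 ± 0.17 (95% interval -1.37 to -0.58, adjusted p = 0.0110), 1.97-fold lower. The pools given above did not overlap for either gene. Plin2 overlapped between the groups and differed by 0.65 ± 0.28 (adjusted p = 0.207). Without replicate 2 of the deficient pools its difference was 1.06 with an adjusted p of 0.0420. The Mgll call was lost without replicate 1 of the necrotic pools (0.0597), without replicate 1 of the deficient pools (0.0653), and when only these groups were fitted (0.0767). The other 6 genes differed by between -0.12 and 0.26. Dgat1, at 0.26 ± 0.13 (adjusted p = 0.283), was the only other member whose pools did not overlap here. The share of all probe sets with pools apart was not counted in this comparison, so the number of such members cannot be weighed.

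Under fish oil, lack of choline was compared with its supply. No member passed, and no probe set of the whole array did (0%), although 1036 probe sets had an unadjusted p under 0.05 by limma. Lipg had 8.68 and 8.77 in deficient fish oil kidneys, against 8.74 and 8.64 in control fish oil kidneys, and Mgll had 12.61 and 12.66 in deficient fish oil kidneys, against 12.64 and 12.36 in control fish oil kidneys. Plin2 had 10.74 and 10.51 in deficient fish oil kidneys, against 10.76 and 10.31 in control fish oil kidneys. The pools overlapped for all 9 genes, and the share of all probe sets whose pools overlapped was not counted.

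The intervals under fish oil show which sizes remain possible. The difference between deficient and control fish oil kidneys had a 95% interval of -0.43 to 0.50 for Lipg, -0.27 to 0.53 for Mgll and -0.55 to 0.74 for Plin2. The unadjusted p of the 9 members ran upward from 0.299, that of Lpl, whose deficient fish oil pools were far apart at 10.48 and 9.78 against 10.35 and 10.39 in control fish oil kidneys. The differences of the other 8 members lay between -0.05 and 0.13.

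**Figure D2:**
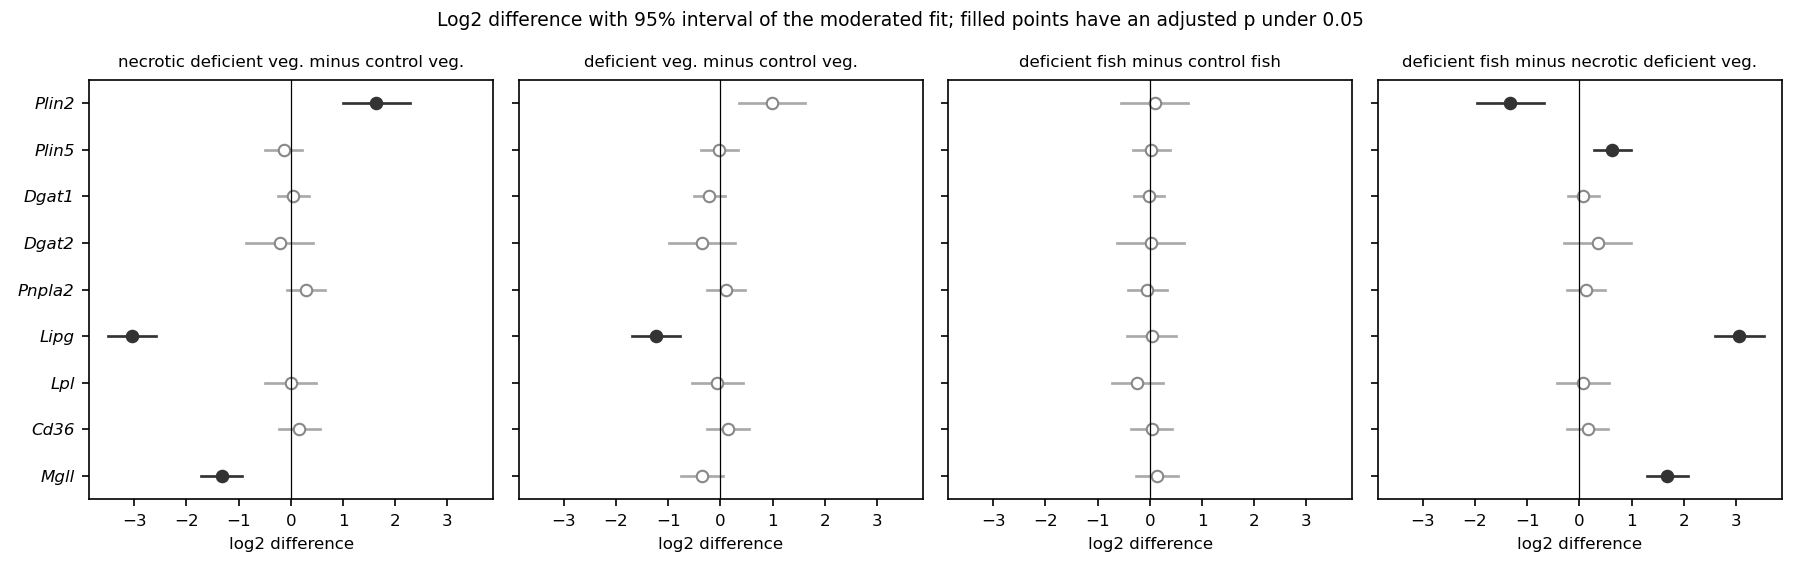
Log2 difference of each gene in 4 comparisons, with the 95% interval of the limma fit over all 10 arrays (2 pools per group); filled points have an adjusted p under 0.05. Plin2, Lipg and Mgll are filled in the first panel, Lipg in the second and none in the third, where every interval includes 0; in the last panel Plin2, Plin5, Lipg and Mgll are filled.

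Whether the choline effect differed with the oil was tested as an interaction, the deficient minus control difference under fish oil minus that under vegetable oil. With the necrotic kidneys as the deficient vegetable oil group, Plin2, Lipg and Mgll differed, 3 of 9 members where 8.72% of all probe sets passed (4.9% above 0 and 3.82% below) and 12.9% of named genes did. The necrotic label sets this group apart, and no fish oil group carries it. Necrosis and an effect of choline that depends on the oil therefore cannot be told apart in this test. The interaction was 3.09 ± 0.29 for Lipg (adjusted p = 0.000950), 1.45 ± 0.25 for Mgll (adjusted p = 0.0101) and -1.55 ± 0.40 for Plin2 (adjusted p = 0.0484). The Plin2 value was at the edge of the threshold and lost its call when any of the 8 arrays was left out (adjusted p = 0.0522 to 0.146) and after cyclic loess (0.0506). The Mgll value lost its call without replicate 2 of the control vegetable oil pools (0.0505). With the deficient vegetable oil kidneys not labelled necrotic in their place, 0 of 9 members passed, where 0.103% of all probe sets did, and the only member with an unadjusted p under 0.05 was Lipg (1.27 ± 0.29, unadjusted p = 0.00188, adjusted p = 0.213). Of all 29214 probe sets 2892 had an unadjusted p under 0.05 by limma there. Plin2 was at -0.90 ± 0.40 (adjusted p = 0.506) and Mgll at 0.48 ± 0.25 (adjusted p = 0.556).

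Deficient fish oil kidneys were next compared with the necrotic kidneys, which also lacked choline. Plin5, Lipg and Mgll were higher under fish oil and Plin2 was lower, 4 of 9 members where 19.7% of all probe sets passed (9.25% higher and 10.5% lower) and 27.4% of named genes did. Lipg differed by 3.06 ± 0.20 (adjusted p = 5.26e-05), Mgll by 1.69 ± 0.17 (adjusted p = 0.000341), Plin2 by -1.32 ± 0.28 (adjusted p = 0.0113) and Plin5 by 0.63 ± 0.15 (adjusted p = 0.0212). The necrotic pools in this comparison are those of the first, so the comparisons are not independent. The Plin5 call was lost without replicate 1 or 2 of the necrotic pools (0.0557 and 0.1002) and without replicate 1 or 2 of the deficient fish oil pools (0.130 and 0.0592). That of Plin2 was lost without replicate 1 of the necrotic pools (0.0747) and without replicate 2 of the deficient fish oil pools (0.0727).

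Against the deficient vegetable oil kidneys not labelled necrotic, deficient fish oil kidneys had higher Lipg, 1 of 9 members where 1.74% of all probe sets passed (0.346% higher and 1.39% lower) and 2.79% of named genes did. Its difference was 1.25 ± 0.20 (95% interval 0.79 to 1.71, adjusted p = 0.0231), a 2.38-fold higher intensity. Mgll was at 0.71 ± 0.17 (adjusted p = 0.103) and Plin2 at -0.67 ± 0.28 (adjusted p = 0.372), each with pools that did not overlap. The Lipg call was lost without replicate 2 of the deficient vegetable oil pools (0.105), without replicate 1 or 2 of the deficient fish oil pools (0.111 and 0.162) and when only these groups were fitted (0.140). Without replicate 1 of the deficient vegetable oil pools Mgll passed (0.94, adjusted p = 0.0394). Dgat1 (0.33 ± 0.13), Dgat2 (0.49 ± 0.28), Pnpla2 (0.30 ± 0.16), Plin5 (0.51 ± 0.15) and Cd36 (0.18 ± 0.17) also had fish oil pools above both vegetable oil pools, with adjusted p-values of 0.186 or more. The dimmer Cd36 probe set differed by 0.02 ± 0.22, with pools that overlapped. How many of all probe sets had pools apart in this way was not counted, so the number of such members cannot be weighed.

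Fish oil with choline was set against vegetable oil with choline to see the oil alone. No member passed, where 0.185% of all probe sets did, and Plin5 and Pnpla2 were the only members with an unadjusted p under 0.05. Of all 29214 probe sets 3621 had an unadjusted p under 0.05 by limma. Plin5 had 7.65 and 7.24 in control fish oil kidneys, against 6.97 and 6.99 in control vegetable oil kidneys (0.47 ± 0.15, unadjusted p = 0.0148, adjusted p = 0.295). Pnpla2 had 12.75 and 12.59 in control fish oil kidneys, against 12.07 and 12.34 in control vegetable oil kidneys (0.46 ± 0.16, unadjusted p = 0.0182, adjusted p = 0.313). In both genes the fish oil pools were above the vegetable oil pools. In Lpl (0.31 ± 0.22), Cd36 (0.28 ± 0.17) and Mgll (0.23 ± 0.17) they were too, with smaller differences. The dimmer Cd36 probe set differed by 0.32 ± 0.22, with pools that overlapped. The share of all probe sets with pools apart in this way was not counted here either.

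Plin5 had its fish oil pools above its vegetable oil pools over all 10 arrays, with or without choline. It had 7.55 and 7.39 in deficient fish oil kidneys and 7.65 and 7.24 in control fish oil kidneys, and its 6 vegetable oil pools lay between 6.78 and 7.05. No vegetable oil pool reached a fish oil pool, and the share of all probe sets split in this way was not counted. Pnpla2 had 12.61 and 12.63 in deficient fish oil kidneys, and its fish oil pools ran from 12.59 to 12.75 and its vegetable oil pools from 12.07 to 12.68, where only the higher necrotic pool entered the fish oil range. A contrast of both fish oil groups against both non-necrotic vegetable oil groups was added after these values were seen. It gave 0.49 ± 0.11 for Plin5 (95% interval 0.24 to 0.74, adjusted p = 0.0627), 0.61 ± 0.14 for Lipg (0.0758), 0.47 ± 0.12 for Mgll (0.107) and 0.38 ± 0.11 for Pnpla2 (0.148), and 0 of 9 members passed where 2.25% of all probe sets did. Of all 29214 probe sets 4179 had an unadjusted p under 0.05 by limma there. Among the 9 members 5 did, the fifth being Dgat1 (0.23 ± 0.09, unadjusted p = 0.0323).

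That result sits close to the threshold. Plin5 passed after median centring (adjusted p = 0.0378), after quantile normalization of the deposited values (0.0395), after cyclic loess (0.0470), without the dimmest probe sets (0.0422) and without replicate 2 of the control fish oil pools (0.0450). Lipg and Mgll passed without replicate 1 of the deficient vegetable oil pools (0.0305 and 0.0414). The mean level of Plin5 over all arrays, 7.14, lay near the array medians of 7.28 to 7.43. Its promoter window, at chr9:1033285-1033534 on the minus strand of GRCr8, is shown with AGGTCA, a single copy of the hexamer of which the PPAR response element AGGTCANAGGTCA holds a pair, in capitals.
Plin5: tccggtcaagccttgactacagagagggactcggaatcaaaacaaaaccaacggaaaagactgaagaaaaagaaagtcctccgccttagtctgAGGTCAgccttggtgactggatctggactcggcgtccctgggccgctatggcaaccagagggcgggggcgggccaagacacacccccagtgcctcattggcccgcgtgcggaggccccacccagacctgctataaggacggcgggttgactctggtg

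The hexamer lay 152 bases before the Plin5 start. Searched on both strands, it was in 16.2% of all windows, those with the full element included, and in no other window of these genes.

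Of 11 measured genes of lipoprotein lipase control and lipoproteins, 2 rose and 2 fell in necrotic against control vegetable oil kidneys, and 7 did not pass. Among all named genes 28.1% passed in that comparison. Angptl4, a secreted protein that inactivates lipoprotein lipase and a known PPAR target, had 11.11 and 11.19 in necrotic kidneys, 10.74 and 10.35 in deficient vegetable oil kidneys, 10.40 and 10.22 in deficient fish oil kidneys, 10.11 and 9.87 in control fish oil kidneys and 7.79 and 8.31 in control vegetable oil kidneys. The control vegetable oil pools were apart and lowest. Angptl4 was higher than in control vegetable oil kidneys by 3.11 ± 0.20 in necrotic kidneys (adjusted p = 5.17e-05), by 2.50 ± 0.20 in deficient vegetable oil kidneys (0.00152) and by 1.95 ± 0.20 in control fish oil kidneys (0.0119). These comparisons share their control pools.

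Under fish oil Angptl4 differed with choline by 0.32 ± 0.20 (95% interval -0.14 to 0.77, adjusted p = 1.00), and its interaction of choline and oil was -2.18 ± 0.28 in the kidneys not labelled necrotic (adjusted p = 0.0450) and -2.79 ± 0.28 with the necrotic kidneys (0.00124). Under vegetable oil, that is, the deficient pools exceeded the control pools by more. Over the alternatives the adjusted p of the first interaction reached 0.198, without replicate 1 of the control fish oil pools, and it lost its call without any of the 8 arrays. That of control fish oil against control vegetable oil reached 0.104 without the same pool, and was also lost without replicate 2 of the control fish oil pools, without replicate 1 of the control vegetable oil pools and when only these groups were fitted (adjusted p = 0.0676 to 0.0804).

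Lpl itself kept within 9.78 to 10.48 over all 10 arrays. Gpihbp1, which carries lipoprotein lipase across the capillary cell and holds it there, had 8.19 and 8.16 in necrotic kidneys and 8.10 and 8.46 in control vegetable oil kidneys (-0.10 ± 0.23, adjusted p = 0.784). Apoc2, the apolipoprotein that activates lipoprotein lipase, had 10.06 and 8.90 in necrotic kidneys, against 12.05 and 12.13 in control vegetable oil kidneys. It fell by 2.61 ± 0.35 on the log2 scale (adjusted p = 0.00134), and Apoc3, an apolipoprotein that inhibits the enzyme, fell by 1.99 ± 0.24 (0.000771).

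**Figure D3:**
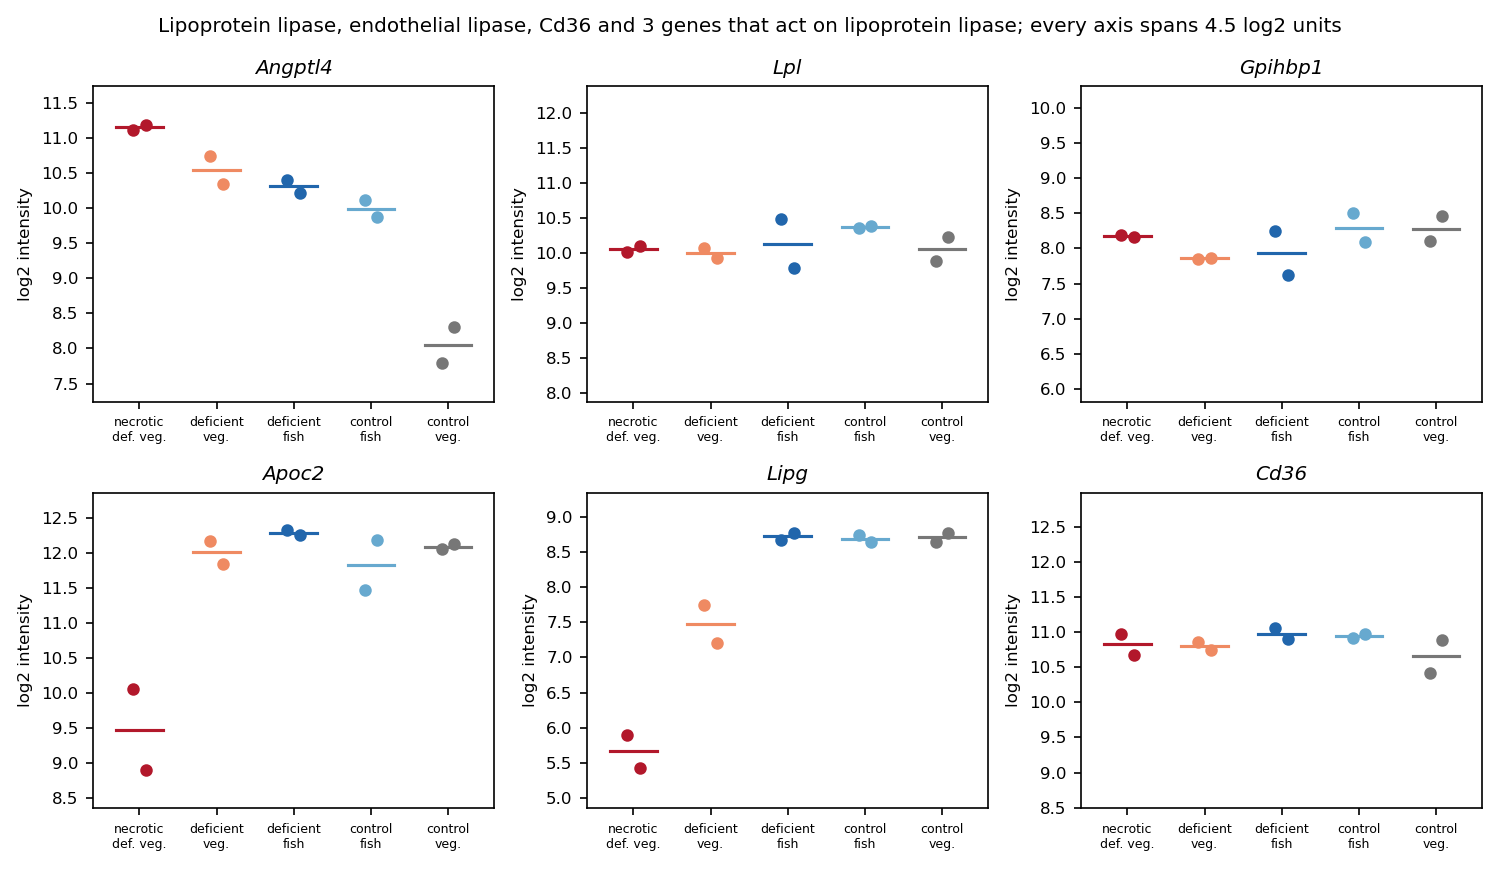
Log2 intensity of Lpl, Lipg and Cd36 with Angptl4, Gpihbp1 and Apoc2, which act on lipoprotein lipase, by diet group (1 point per pool of 3 animals, 2 pools per group, line at the mean; every axis spans 4.5 log2 units). Angptl4 is lowest in the 2 control vegetable oil pools (7.79 and 8.31), Apoc2 and Lipg are lowest in the necrotic pools, and Lpl stays within 9.78 to 10.48.

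Other genes of droplet and triglyceride metabolism were counted in 6 lists, which hold 76 measured genes of 86 listed. Like the members, the lists were chosen with earlier results of these data known. In necrotic against control vegetable oil kidneys 10 rose and 24 fell, with a median difference of -0.22 beside 0.05 over all named genes. Among all named genes 28.1% passed there, the share that stands beside the count of each list in that comparison. In the list of droplet coat and shape 2 of 14 rose and 6 fell (median -0.34). Cideb, which takes part in droplet fusion and lipoprotein loading, fell by 1.49 ± 0.18 (adjusted p = 0.000702). The 2 that rose were Rab18, a small GTPase of the droplet surface (0.64 ± 0.18, adjusted p = 0.0380), and Abhd5, the co-activator of Pnpla2, which was named after its value was seen (0.45 ± 0.11, adjusted p = 0.0180). Both calls were lost after median centring and when any of the 4 pools was left out (adjusted p = 0.0510 to 0.167), and that of Abhd5 also when only these groups were fitted. Abhd5 had 10.25 and 10.20 in necrotic kidneys, above 9.78 and 9.77 in control vegetable oil kidneys. Plin1 and Plin3, the perilipins of fat cells and of most cells, differed by -0.21 ± 0.31 and 0.17 ± 0.12 and did not pass.

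Of 18 genes of triglyceride synthesis upstream of the Dgat step 5 rose and 5 fell in necrotic kidneys (median 0.02). Acsl1, a long-chain acyl-CoA synthetase, fell by 1.68 ± 0.14 (adjusted p = 0.000140), while Acsl4, the synthetase that prefers arachidonic acid, was higher by 1.20 ± 0.12 (0.000342) and Lpin3, a phosphatidate phosphatase, by 0.90 ± 0.12 (0.00136). Intracellular lipolysis, the list around Mgll and Pnpla2, had 0 of 8 higher and 5 lower (median -0.65). Aadac, an esterase of the endoplasmic reticulum, had 4.08 and 3.87 in necrotic kidneys, against 8.32 and 8.06 in control vegetable oil kidneys, and fell by 4.22 ± 0.29 (6.24e-05). Its necrotic values lay below the lower quartile of all probe sets, with no detection calls to say whether they exceed background. Ces1d, a carboxylesterase with triglyceride hydrolase activity, fell by 1.93 ± 0.26 (0.00126), Pnpla3 by 1.38 ± 0.21 (0.00242) and Abhd6, a second monoacylglycerol lipase, by 0.89 ± 0.14 (0.00275). Lipe, hormone-sensitive lipase, had -0.40 ± 0.19 and did not pass (0.178).

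Of 12 genes of fatty acid uptake 0 rose, 2 fell and 10 did not pass in necrotic kidneys (median -0.10), and of 13 PPAR alpha targets 1 rose, 4 fell and 8 did not pass (median -0.27). Slc27a2, a fatty acid transport protein of the proximal tubule, fell by 1.75 ± 0.12 (adjusted p = 7.11e-05), and Fabp3, a fatty acid binding protein, also fell (adjusted p = 0.00419). Ehhadh, of peroxisomal beta-oxidation, fell by 2.06 ± 0.19 (0.000215), Cyp4a1, a fatty acid hydroxylase, by 1.88 ± 0.29 (0.00243) and Acadm, medium-chain acyl-CoA dehydrogenase, by 1.43 ± 0.15 (0.000429). The falls of these genes stand beside the lower tubule markers given above, whose part was not tested. In the list of lipoprotein lipase control and lipoproteins (median -0.14) the 2 that rose were Angptl4 and the receptor Lrp1 (1.41 ± 0.17, adjusted p = 0.000754), and the 2 that fell were Apoc2 and Apoc3.

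In deficient vegetable oil against control vegetable oil kidneys only Angptl4 of these 76 genes passed, and in deficient against control fish oil kidneys none did. In deficient fish oil against deficient vegetable oil kidneys 6 rose and 1 fell (median 0.17, beside 0.00 over all named genes), and 5 of the 6 were among the 13 PPAR alpha targets (median 0.81). Of all named genes 2.79% passed in this comparison. Creb3l3, a transcription factor of fasting lipid metabolism, had 8.99 and 9.13 in deficient fish oil kidneys, against 7.53 and 7.32 in deficient vegetable oil kidneys (1.63 ± 0.19, adjusted p = 0.00626). Pdk4, which holds back glucose oxidation, was higher by 1.22 ± 0.18 (0.0141). The call of Creb3l3 was lost without replicate 2 of the deficient fish oil pools (0.0682), and that of Pdk4 without either deficient fish oil pool or replicate 2 of the deficient vegetable oil pools (up to 0.103). Macrophage markers moved in the same comparison, with 5 of 8 lower (median -1.04) and summed linear intensities of 1926 and 1952 in deficient fish oil kidneys, against 3800 and 5299 in deficient vegetable oil kidneys, and their part was not tested. In the added contrast of both fish oil groups against both non-necrotic vegetable oil groups 4 of the 8 macrophage markers were lower. There 11 of the 76 rose and 1 fell, with 7 of the 13 PPAR alpha targets higher (median 0.70), where 3.38% of all named genes passed.

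Among the 12 called in that added contrast, Creb3l3 differed by 1.84 ± 0.14 (adjusted p = 0.00112), Pdk4 by 1.18 ± 0.13 (0.00371), Vnn1, a pantetheinase, by 0.89 ± 0.09 (0.00285) and Acsl1 by 0.96 ± 0.10 (0.00310). Acsl1 had 11.93 and 11.97 in deficient fish oil kidneys and 12.16 and 11.93 in control fish oil kidneys, above all vegetable oil pools (9.42 to 11.25). Acsl5, another synthetase, differed by -0.51 ± 0.08 (0.0162), a call lost without any 1 of the control vegetable oil or fish oil pools (0.0521 to 0.0800).

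**Figure D4:**
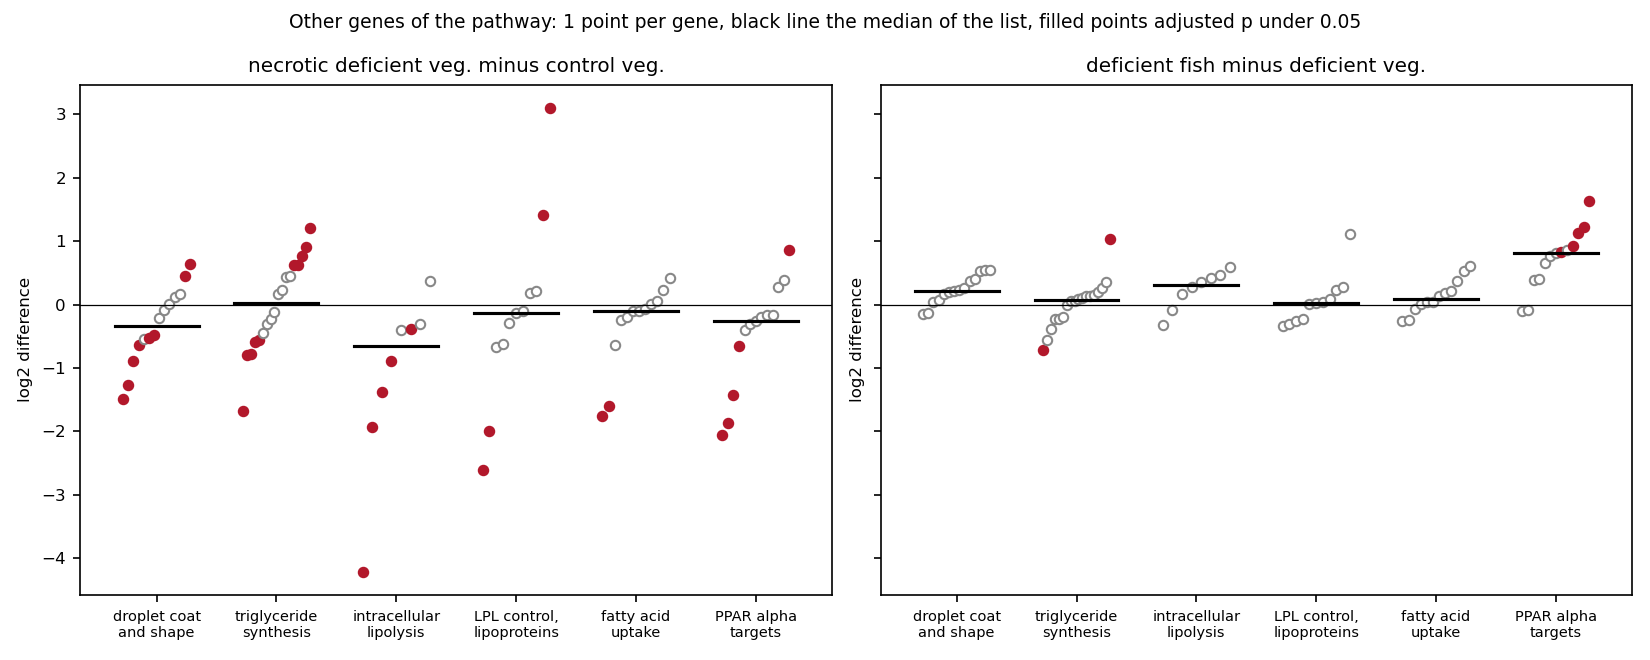
Log2 difference of each measured gene of the 6 pathway lists (1 point per gene, the members left out; black line, median of the list; filled points, adjusted p under 0.05 by limma with 2 pools per group). In necrotic minus control vegetable oil kidneys the lipolysis list has a median of -0.65 with 5 of 8 filled points, all below 0, and Angptl4 stands at 3.11; in deficient fish oil minus deficient vegetable oil kidneys 5 of 13 PPAR alpha targets are filled, all above 0.

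The order of the groups differed from gene to gene. Lipg means ran from 8.73 in deficient fish oil through 8.71 in control vegetable oil and 8.69 in control fish oil, which overlapped, to 7.48 in deficient vegetable oil and 5.66 in necrotic kidneys, each apart from its neighbours. Mgll had the order 12.63 in deficient fish oil, 12.50 in control fish oil, 12.27 in control vegetable oil, 11.92 in deficient vegetable oil and 10.95 in necrotic kidneys, and only the fish oil groups overlapped. Plin2 had the order 11.95 in necrotic, 11.30 in deficient vegetable oil, 10.63 in deficient fish oil, 10.53 in control fish oil and 10.31 in control vegetable oil kidneys, where only deficient vegetable oil and deficient fish oil kidneys were neighbours without overlap. Over all 10 arrays the values spanned 3.35 for Lipg, 1.95 for Plin2 and 1.82 for Mgll. Dgat1 (0.50), Cd36 (0.64), Pnpla2 (0.67), Lpl (0.70), Plin5 (0.87) and Dgat2 (1.02) varied less.

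As a description over the 10 arrays, which share diets and pools, Lipg and Mgll had a Pearson r of 0.96 with each other, Plin2 had -0.90 with Lipg and -0.87 with Mgll, and Dgat1 and Dgat2 had 0.84. Among all other named genes the profiles most like that of Plin2 were those of Klf16 (0.982), a zinc finger transcription factor, and Tmbim1 (0.981). Those most like Lipg were Poldip2 (0.997) and Pdk2 (0.994), a pyruvate dehydrogenase kinase, and those most like Mgll were Etfdh (0.993), which passes electrons from fatty acid oxidation to the respiratory chain, and Fam3a (0.993). Pnpla2 was followed most closely by Cpt1a (0.926), which admits long-chain fatty acids to the mitochondrion, and Daw1 (0.912), and Plin5 by Fgfrl1 (0.951) and Fam115e (0.949). For Dgat1 they were Homer2 (0.932) and Rasd2 (0.906), and for Dgat2 Xrra1 (0.941) and Def8 (0.937). The closest were C5h1orf141 (0.924) and Or1f34 (0.903) for Lpl and Or4c29 (0.909) and Mettl13 (0.892) for Cd36. Lpl, Cd36, Pnpla2, Dgat1 and Dgat2 passed in no comparison.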

How the data were processed

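RNA of 10 kidney pools was measured on 1-colour expression arrays. The authors deposited log2 intensities for each probe set and computed them with RMA, per the submitters' processing notes. The software used for RMA, its version and how probe sets were defined are not given in these sources. Values from 1.62 to 14.72, with array medians of 7.28 to 7.43, entered the fits unaltered. Of 29214 probe sets 15310 carried 1 gene symbol in the platform annotation, 323 carried several and were not named, and 13581 were not listed. A limma model (version 3.58.1, R 4.3.3, lmFit with eBayes) took all 5 groups; the replicate number was not a block, and the residual and prior degrees of freedom were 5 and 3.59. P-values of a contrast were adjusted across the whole array by Benjamini-Hochberg, and an adjusted p under 0.05 was called. The fit was tested on simulated data. Intervals are 95% intervals of the moderated fit. Of the pathway lists up to 4 called genes per list and contrast could be named, by size. The members and lists were chosen with earlier results of these data known. Alternatives were median centring, repeated quantile normalization, cyclic loess, a filter at the 25th percentile, a trend and robust prior, a fit of the compared groups only, the most variable probe set per gene, a replicate block and each pool left out in turn. Promoters came from RefSeq (GRCr8), and the array files name no build.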

Additional observations from a re-analysis of the deposited data

Results flagged for a closer look

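Of the members, 3 passed the interaction test with the necrotic kidneys as the deficient vegetable oil group: Lipg (3.09), Mgll (1.45) and Plin2 (-1.55), all as the log2 difference under fish oil minus that under vegetable oil. No fish oil group carries the necrotic label, so necrosis and an effect of choline that depends on the oil cannot be told apart in it. The adjusted p was 0.000950 for Lipg, 0.0101 for Mgll and 0.0484 for Plin2. The Plin2 call was lost when any of the 8 arrays was left out. With the deficient vegetable oil kidneys that were not labelled necrotic, 0 of 9 members passed (adjusted p = 0.213 for Lipg, 0.506 for Plin2 and 0.556 for Mgll). Angptl4, which is not a member, differed in the same test by -2.79 (adjusted p = 0.00124), and by -2.18 (adjusted p = 0.0450) with the kidneys not labelled necrotic, a call that was also lost without any of the 8 arrays.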

How the results depend on the processing

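Over 90 gene and contrast values, 1188 alternative values were computed. Of these 1149 kept the side of the threshold, 28 lost the call, 11 gained it and 0 reversed a called value. Among the 90 values, 37 that were not called changed sign in at least 1 alternative, and those changes are counted within the 1149. Of 14 called values 7 kept the call in all alternatives: Plin2, Lipg and Mgll in necrotic against control vegetable oil kidneys, Lipg in necrotic against deficient vegetable oil kidneys, Lipg and Mgll in deficient fish oil against necrotic kidneys, and Lipg in the interaction with necrotic kidneys. Fitting only the compared groups left 0 members called in deficient against control vegetable oil kidneys (1 otherwise), 1 in necrotic against deficient vegetable oil (2) and 0 in deficient fish oil against deficient vegetable oil (1); the trend and robust prior gave 2 in the last. In the added contrast of fish oil against vegetable oil, where 0 were called, median centring, quantile normalization, cyclic loess and the 25th percentile filter each gave 1. With each pool left out in turn, the lone pool being assumed to vary like the other groups, the count ran from 0 to 2 in deficient against control vegetable oil, 1 to 3 in necrotic against deficient vegetable oil, 0 to 2 in deficient fish oil against deficient vegetable oil, 2 to 3 in deficient fish oil against necrotic (4 with all pools), 1 to 2 in the interaction with necrotic kidneys (3) and 0 to 2 in the added contrast. Deviations of pools with the same replicate number had correlations between -0.173 and 0.136 over 10 pairs of groups, 3 of them over 0.1. These are taken over all probe sets, and a batch shared by some groups was not tested. With the number as a block, Plin2 lost its interaction call (adjusted p = 0.0705) and no other call of a member changed. Of 139 called values of list genes and cell markers 81 kept the call in all alternatives and 0 reversed. Over all probe sets, fitting only the compared groups called 82 in deficient against control vegetable oil kidneys (330 otherwise), 654 in necrotic against deficient vegetable oil (2860), 5 in control fish against control vegetable oil (54), 25 in deficient fish against deficient vegetable oil (507) and 14 in the interaction without necrotic kidneys (30), where the trend and robust prior called 67, the filter 61 and the replicate block 11. The trend and robust prior also called 540 in deficient against control vegetable oil and 124 in control fish against control vegetable oil, where the filter called 115. Median centring turned the split in necrotic against control vegetable oil kidneys to 2123 higher and 3739 lower (2985 and 3113 otherwise), in deficient fish oil against necrotic kidneys to 3483 and 2282 (2701 and 3062), and in the interaction with necrotic kidneys to 1670 and 818 (1431 and 1117). The cause was not tested. Signal near the lower quartile limits the size of the Lipg difference in necrotic kidneys.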

Other observations

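Ucp1, the uncoupling protein of brown fat, was among the adipocyte markers and varied widely. Its log2 intensities were 7.35 and 5.89 in necrotic kidneys, 10.79 and 10.29 in deficient vegetable oil kidneys, 10.73 and 8.55 in deficient fish oil kidneys, 11.13 and 9.69 in control fish oil kidneys and 10.36 and 10.99 in control vegetable oil kidneys. Necrotic and control vegetable oil kidneys differed by -4.05 ± 0.75 (adjusted p = 0.00602). In both fish oil groups replicate 1 exceeded replicate 2 by over 1 unit. Over the same arrays the summed linear intensity of all 10 adipocyte markers was 6334 and 3673 in deficient fish oil kidneys and 6588 and 4459 in control fish oil kidneys. That sum includes Ucp1, so it is not a separate measure of the difference between replicates.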
